A study of Mus musculus with 3 samples.

Results

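Collagen and laminin chains are the building blocks of basement membranes, the thin sheets of matrix that line retinal vessels and the vitreal face of the retina, and of the vitreous gel next to them. The genes followed here were taken by symbol, as every row of the gene table named Col, a number, a and a number, or Lama, Lamb or Lamc and a number. The rule found 52 of 18545 genes. Of these, 51 encode a chain: 40 collagen genes (6 of collagen IV, 11 fibrillar, 9 fibril-associated, 2 multiplexin, 4 transmembrane and 8 beaded, anchoring, short-chain or other) and 11 laminin genes (5 alpha, 3 beta and 3 gamma). The remaining gene, Col4a3bp, carries the letters but encodes a ceramide transfer protein, so it was kept in the total of 52 and left out of every count below.

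All mice were C57BL/6J and 8 weeks old. The rd10 mice, which carry a mutation in the rod phosphodiesterase gene Pde6b, were dark-reared, a condition under which their rods are lost more slowly. For this experiment the study's text states dark rearing of the rd10 mice and does not state it for the WT mice. The groups were untreated WT mice, rd10 mice on control chow (rd10-vehicle) and rd10 mice on chow containing tamsulosin, metoprolol and bromocriptine (rd10-TMB). These drugs are, in that order, an alpha-1 adrenergic blocker, a beta-1 adrenergic blocker and a dopamine D2 agonist. Dissociated retinal cells of each group went into 1 droplet library that pooled 1 retina from each of 4 mice per the labels, while the study's methods give fewer mice for the rd10 groups. The rd10 libraries are female and the WT pool held both sexes. With 1 library per group no difference between groups could be tested, and every interval below is a 95% interval that covers counting error only.

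Collagen IV forms the network of basement membranes: 3 chains wind into a protomer, most often 2 of alpha 1 with 1 of alpha 2, and the alpha 3 to alpha 6 chains build more specialised networks. Laminins are trimers of an alpha, a beta and a gamma chain that bind integrins and dystroglycan at the cell surface and start the sheet on which collagen IV is laid down. In the vitreous, type II collagen makes the fibril core, the type IX chains sit on its surface and the type V and XI chains lie within it. Müller glia, the radial glia of the retina, rest with their endfeet on the inner limiting membrane, the basement membrane towards the vitreous. Retinal astrocytes lie beside that membrane and guide the vessels, whose endothelial cells and pericytes share a basement membrane of their own.

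The promoter windows of Col9a1 and of the neighbours Col4a5 and Col4a6 are shown because the first gene had the most UMIs of all members and the other pair were read mostly from the same Müller-like cells. Each is the 250 bases before a start, 5′ to 3′ on the gene's strand, from RefSeq on GRCm38.p6 (mm10). The table held rows for 36 of the 51 members. Capitals mark a GC box, GGGCGG or CCGCCC on the other strand, which 32.7% of 32817 such windows contain. TATAAA, found in 12.4% of the windows, and AACAAT, a core of SOX factor motifs found in 9.42%, were searched on both strands and were in none of these 4.
Col9a1 upstream start, chr1:24177360-24177609, plus strand: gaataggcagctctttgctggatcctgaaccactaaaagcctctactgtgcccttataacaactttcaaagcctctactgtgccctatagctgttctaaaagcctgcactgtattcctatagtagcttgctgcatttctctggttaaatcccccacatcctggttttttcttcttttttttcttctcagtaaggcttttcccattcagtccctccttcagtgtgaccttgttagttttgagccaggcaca
Col9a1 downstream start, chr1:24194953-24195202, plus strand: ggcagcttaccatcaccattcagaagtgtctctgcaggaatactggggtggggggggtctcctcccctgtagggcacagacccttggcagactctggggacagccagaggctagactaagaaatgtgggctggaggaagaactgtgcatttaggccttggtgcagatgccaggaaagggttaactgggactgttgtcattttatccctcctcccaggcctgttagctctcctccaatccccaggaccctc
Col4a5, chrX:141475169-141475418, plus strand: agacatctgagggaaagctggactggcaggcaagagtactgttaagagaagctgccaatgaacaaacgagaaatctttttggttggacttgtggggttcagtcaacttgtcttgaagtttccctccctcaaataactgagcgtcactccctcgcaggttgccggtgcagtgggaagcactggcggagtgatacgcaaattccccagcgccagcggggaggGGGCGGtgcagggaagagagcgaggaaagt
Col4a6, chrX:141474077-141474326, minus strand: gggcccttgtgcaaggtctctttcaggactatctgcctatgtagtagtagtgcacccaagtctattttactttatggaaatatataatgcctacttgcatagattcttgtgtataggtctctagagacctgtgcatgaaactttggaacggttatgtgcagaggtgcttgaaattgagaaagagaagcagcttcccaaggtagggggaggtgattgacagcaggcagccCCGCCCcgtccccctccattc
The Col9a1 starts lie 17593 bases apart, and libraries that read 3′ ends cannot tell which was used. Col4a5 and Col4a6 run away from each other from starts 1343 bases apart, and each window held 1 GC box.

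Levels are given as CPM, the share of a gene among all UMIs of a class in a library scaled to 1000000, where a UMI is 1 captured transcript end. Since ends were counted, no level was divided by gene length, and the order of levels between genes assumes equal capture, which was not tested. The libraries held 4478 to 5952 cells with a median of 3509.5 to 4811.5 UMIs per cell, and 7 to 10 cell barcodes were shared between any pair of libraries. In WT, rd10-vehicle and rd10-TMB, collagen and laminin genes took 0.0522%, 0.0918% and 0.0794% of all UMIs, the order of the numbers of Müller-like cells (530, 2492 and 1748). Clusters are the authors' and were named here from marker genes, none of them a collagen or laminin: all 14 Müller glia markers passed in cluster 0, all 14 endothelial markers in cluster 11, 7 of 11 astrocyte markers in cluster 12 and all 12 mural (pericyte and smooth muscle) markers in cluster 14. All 12 mural markers passed in cluster 11 too, so this endothelial-like cluster also held mural transcripts. Cluster 12 also passed 3 of 8 fibroblast markers, and cluster 14 passed 3 of 8 fibroblast and 3 of 14 endothelial markers. None of these was among the top 10 genes of its cluster.

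Of the 51 genes, 44 had at least 50 UMIs over all cells, and these fell into clear territories. Müller-like cells carried 67.7% of all 66973 collagen and laminin UMIs and the most UMIs of 24 of the 44 genes. They were also the largest class by UMIs, with 3319917 of 18882951 in WT, 22198511 of 37002532 in rd10-vehicle and 16777299 of 29192530 in rd10-TMB. By CPM, however, only Col2a1 had its highest level there, at 178 CPM over all libraries. Highest levels lay in the mural-like cluster for 8 genes, the lens-like cluster for 8, cluster 19 for 7 and cluster 18 for 6. Summed over the 51 genes, the level was 1071 CPM in Müller-like, 650 in astrocyte-like, 1764 in endothelial-like, 3053 in mural-like, 5031 in pigment epithelium-like and 6069 in lens-like cells, against 101 in rod-like and 50.3 in cone-like cells.

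**Figure D1:**
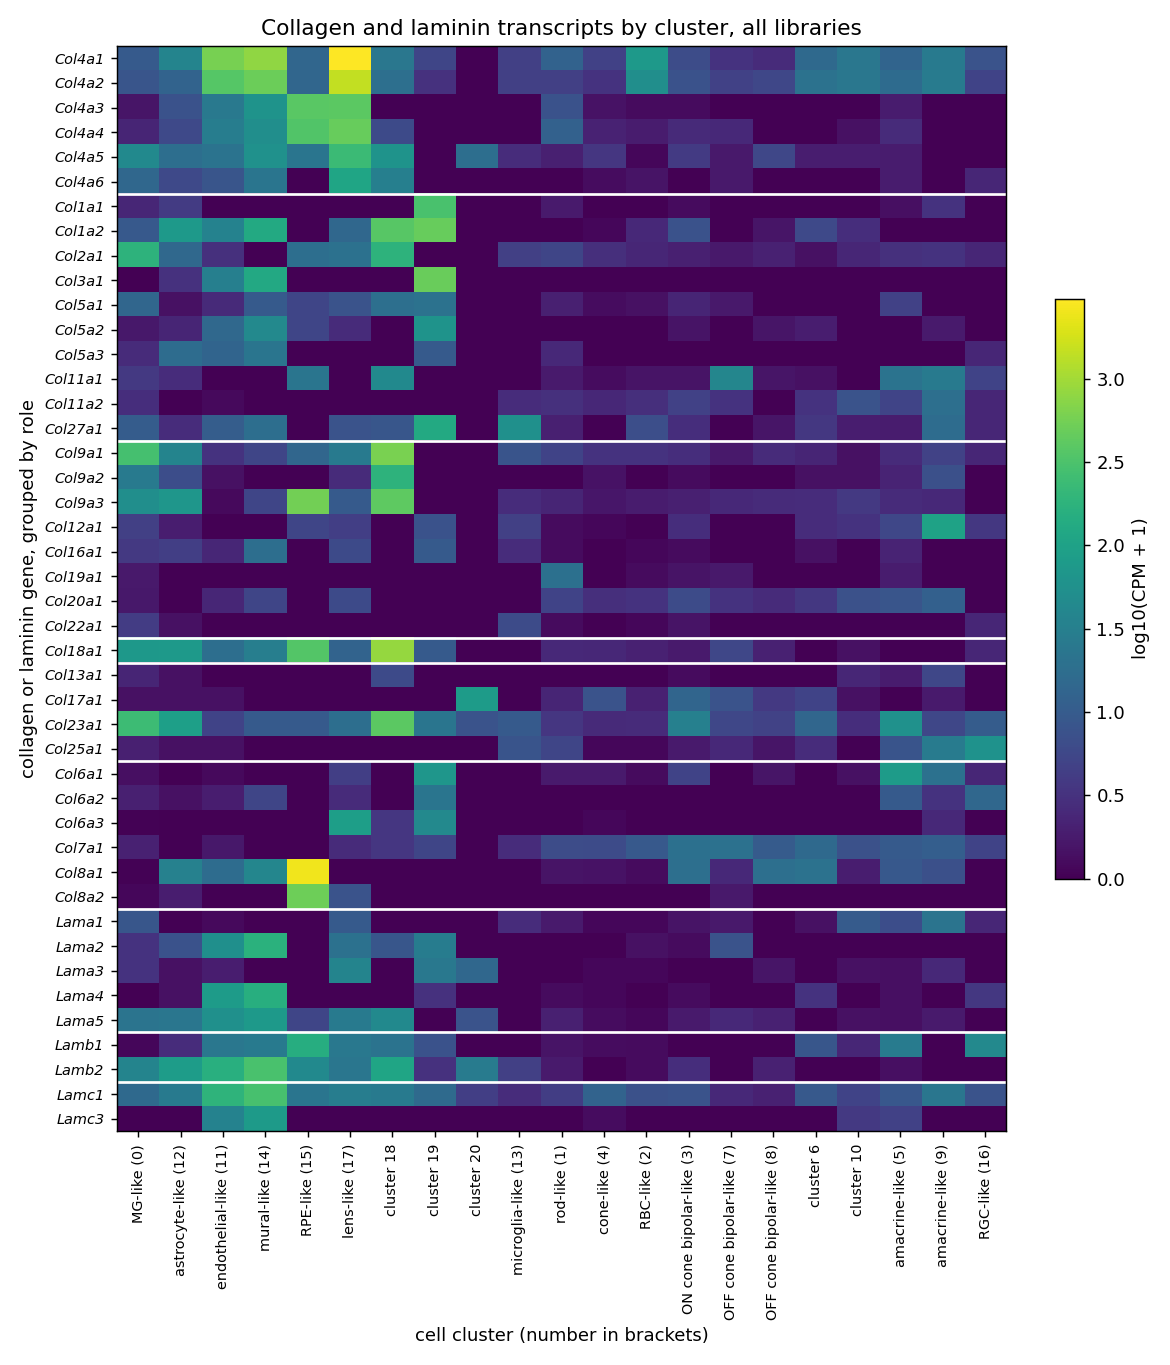
Level of each of the 44 collagen and laminin genes with at least 50 UMIs (rows, grouped by role) in each of the authors' clusters (columns), as log10(CPM + 1) over all libraries. Col4a1 and Col4a2 are brightest in lens-, mural- and endothelial-like clusters and Col4a3 and Col4a4 in lens- and pigment epithelium-like (RPE-like) ones, while Col2a1, Col9a1, Col9a2 and Col23a1 are brightest in Müller-like cells and cluster 18.

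In Müller-like cells 28 of the 51 genes had at least 50 UMIs over the libraries, 22 had 1 to 46, and Col28a1 had none. Col9a1, Col23a1 and Col2a1 stood highest. Col9a1, the alpha 1 chain of type IX collagen, stood at 436, 232 and 328 CPM in WT, rd10-vehicle and rd10-TMB. Its log2 ratio was -0.91 (interval -0.99 to -0.82) for rd10-vehicle over WT and 0.50 (0.44 to 0.55) in rd10-TMB over rd10-vehicle. The study itself singled out Col9a1 on these libraries, so its direction is no independent evidence. The other type IX chains, Col9a3 at 59.6, 48.8 and 51.5 CPM and Col9a2 at 30.4, 24.9 and 27 CPM in the same order, stayed within 1.5-fold. Col2a1, the fibril core, was nearly level at 191, 177 and 178 CPM.

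Of the minor fibrillar chains, Col11a1 differed between rd10-vehicle and WT by more than 1.5-fold. Col11a1, the type XI alpha 1 chain, stood at 7.83, 1.98 and 2.98 CPM in WT, rd10-vehicle and rd10-TMB, a log2 ratio of -2.0 (interval -2.71 to -1.22) for rd10-vehicle over WT from 44 and 26 UMIs. Col11a2, at 1.51, 1.71 and 2.15 CPM, had too few UMIs for a ratio to WT. Col5a1 stood at 12.7, 13.4 and 12.5 CPM and Col27a1 at 12.1, 9.82 and 7.99 CPM. For Col27a1 the log2 ratio of rd10-TMB over WT was -0.62 (-1.11 to -0.05), which came to -0.55 with median-of-ratios scaling and so no longer passed 1.5-fold.

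Col23a1 and Col18a1 are further collagens of the glial surface and its basement membrane: type XXIII is a transmembrane collagen, and type XVIII, which gives rise to endostatin, is a heparan sulphate collagen of basement membranes. Col23a1 stood at 360, 227 and 242 CPM in WT, rd10-vehicle and rd10-TMB, a log2 ratio of -0.67 (interval -0.76 to -0.57) for rd10-vehicle over WT. Among Müller-like cells without Lcn2, a gene of reactive glia, that ratio was -0.51, inside 1.5-fold. Col18a1 lay at 83.4, 72.3 and 65.7 CPM. Both rd10 libraries were thus below WT for both genes, by less for Col18a1.

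Basement membrane chains in Müller-like cells split by gene. Among laminins, Lamb2 (beta 2) stood at 34.0, 37.6 and 35.7 CPM in WT, rd10-vehicle and rd10-TMB, Lama5 (alpha 5) at 17.5, 20.8 and 21.2 and Lamc1 (gamma 1) at 12.3, 13.9 and 15.1. Lama1 (alpha 1), a chain of the inner limiting membrane, lay at 7.53, 7.88 and 6.79 CPM. None of these 4 passed 1.5-fold in any comparison. Lama2 (alpha 2) was lower in rd10, at 4.22, 1.94 and 2.32 CPM, with a log2 ratio of -1.19 (interval -2.02 to -0.14) for rd10-vehicle over WT. Lama3 (alpha 3) stood at 2.11, 1.71 and 2.86 CPM, and its log2 ratio of 0.73 (0.10 to 1.39) in rd10-TMB over rd10-vehicle came from 48 and 38 UMIs.

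Of the collagen IV chains, Col4a5 had the most UMIs in Müller-like cells, at 47.9, 44.4 and 42.2 CPM. Its neighbour Col4a6 stood at 8.74, 14.9 and 12.8 CPM in WT, rd10-vehicle and rd10-TMB, a log2 ratio of 0.72 (interval 0.22 to 1.37) for rd10-vehicle over WT. Against the WT cells that had a Xist UMI but none of a Y-linked gene, that ratio was 0.43, inside 1.5-fold. Both genes, whose windows are printed above, were X-linked and found mostly in these cells, with 83.6% of the UMIs of Col4a5 and 81.0% of those of Col4a6. Col4a4 had 1, 35 and 19 UMIs, or 0.30, 1.58 and 1.13 CPM. Lens-like cells held Col4a6 at 116 CPM in rd10-vehicle and 79.3 in rd10-TMB and Col4a4 at 539 and 99.2. The part of lens RNA in these values was not tested.

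Col4a1 and Col4a2, the common network chains, were low in Müller-like cells, and Col4a1 differed between libraries. Col4a1 stood at 2.11, 11.7 and 6.20 CPM in WT, rd10-vehicle and rd10-TMB, from 7, 259 and 104 UMIs. The log2 ratio was 2.28 (interval 1.40 to 3.80) for rd10-vehicle over WT and -0.90 (-1.25 to -0.58) in rd10-TMB over rd10-vehicle. Rod-like cells showed the same order at 1.67, 29.0 and 13.5 CPM, from 3, 25 and 17 UMIs. With each cell thinned to 1000 UMIs, 0.80% of Müller-like and 1.09% of rod-like cells had a Col4a1 UMI, against 6.81% and 1.61% unthinned at median depths of 8652.5 and 1454.5 UMIs. The thinned share was thus no higher than in rod-like cells, so the Col4a1 differences counted below cannot be assigned to Müller glia. Col4a2 stood at 6.33, 8.56 and 5.72 CPM.

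Markers of other cell types that hold Col4a1 differed in whether they moved with it. In Müller-like cells the endothelial list summed to 831, 660 and 678 CPM in WT, rd10-vehicle and rd10-TMB and the mural list to 91.6, 113 and 125, neither in the order of Col4a1. The lens-like cluster, with 18 cells in rd10-vehicle, 19 in rd10-TMB and none in WT, held Col4a1 at 3450 and 982 CPM. The lens crystallin Cryaa had 1, 210 and 74 UMIs in Müller-like cells of WT, rd10-vehicle and rd10-TMB, and the lens marker list summed to 7.83, 40.5 and 28.3 CPM with 4, 0 and 0 of its 8 markers at 0. Müller-like cells of rd10-vehicle held 1.23 Col4a1 UMIs per Cryaa UMI, against 0.207 in lens-like cells. Lama4 had 1 UMI beside 370 of Col4a1 in Müller-like cells, where endothelial-like cells held 1 for each 7.32 of Col4a1. In the Müller-like cells without a UMI of Cldn5, Pecam1, Cdh5, Rgs5, Acta2, Cryaa or Crygs, the log2 ratio of Col4a1 was 2.20 for rd10-vehicle over WT. The part of lens RNA in the result was not tested beyond these values.

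Col1a2, Col12a1 and Col16a1, at low levels, were past 1.5-fold higher in rd10-vehicle than in WT. Col1a2, the alpha 2 chain of type I collagen, stood at 3.01, 9.64 and 7.63 CPM in WT, rd10-vehicle and rd10-TMB, from 10, 214 and 128 UMIs, with a log2 ratio of 1.55 (interval 0.77 to 2.76) for rd10-vehicle over WT. Col12a1, a collagen that decorates type I fibrils, stood at 1.20, 4.55 and 2.86 CPM, with log2 ratios of 1.61 (0.52 to 3.82) for rd10-vehicle over WT and -0.65 (-1.20 to -0.16) in rd10-TMB over rd10-vehicle. Col16a1 had 1, 74 and 44 UMIs, or 0.30, 3.33 and 2.62 CPM. Its log2 ratio of 2.49 for rd10-vehicle over WT rests on that single WT UMI, with an interval of 0.95 to 8.79.

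Col22a1, a fibril-associated collagen known from tissue junctions, went the other way, at 6.93, 2.52 and 3.28 CPM in WT, rd10-vehicle and rd10-TMB, a log2 ratio of -1.49 (interval -2.18 to -0.69) for rd10-vehicle over WT. Col5a3 stood at 0.30, 1.98 and 1.49 CPM, Col1a1 at 0.90, 1.44 and 1.43 and Col13a1 at 1.81, 1.22 and 1.25. These 3 genes had under 50 UMIs over rd10-vehicle and WT, and their ratios to WT were not counted. After thinning, 16 members had a share of Müller-like cells above that of rod-like cells with intervals apart. No share over all genes was set beside this count. These 16 included Col9a1 (23.9% against 0.42%), Col23a1 (21.8% against 0.24%), Col1a2 (0.58% against 0) and Col22a1 (0.34% against 0.02%). The intervals of Col12a1 (0.28% against 0.03%), Col16a1 (0.26% against 0.01%) and Col11a1 (0.29% against 0.03%) overlapped.

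**Figure D2:**
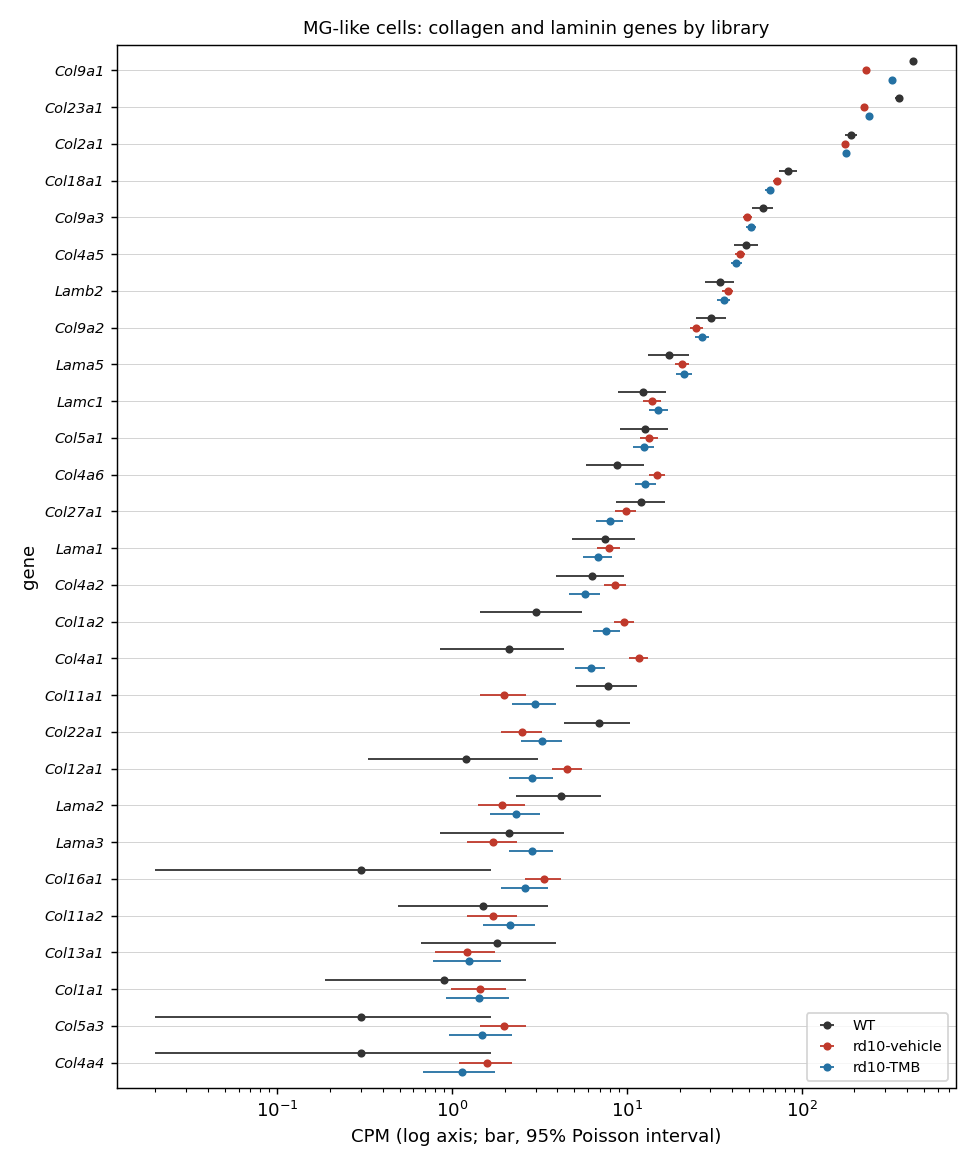
CPM on a log axis of the 28 collagen and laminin genes with at least 50 UMIs in Müller-like (MG-like) cells, 1 point per library, with 95% Poisson intervals cut off at 0.02 CPM on the left. WT lies above both rd10 libraries for Col9a1, Col23a1, Col11a1 and Col22a1 and below both for Col1a2, Col12a1 and Col16a1.

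Counted over the class, 22 members had at least 50 UMIs over rd10-vehicle and WT. Of these, 5 were higher in rd10-vehicle by 1.5-fold or more (Col4a1, Col4a6, Col1a2, Col12a1 and Col16a1), or 22.7%, against 8.64% of all 12404 genes counted the same way. Another 5 were lower (Col9a1, Col23a1, Col11a1, Col22a1 and Lama2), again 22.7%, against 9.31% of all genes. The intervals of all 10 excluded a ratio of 1. Col4a1, Col1a2, Col12a1 and Col16a1 reached the count limit through rd10-vehicle alone, with 7, 10, 4 and 1 UMIs in WT. The same limit applied to all genes, and its part in these shares was not tested. The median log2 ratio was -0.05 over the 22 members and -0.06 over all genes, so as a list the genes did not lean one way. The called value nearest to the limit was -0.67 for Col23a1, and the nearest value not called was 0.38 for Col4a2.

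For rd10-TMB over rd10-vehicle, 27 members were counted. Lama3 alone was higher, or 3.70% against 1.1% of all genes, and Col4a1 and Col12a1 were lower, or 7.41% against 2.2%. Without the cells carrying the 7 vascular and lens genes the Col12a1 ratio was -0.48, inside 1.5-fold. Col11a1 lay just below the limit at 0.58, the limit being 0.585, with an interval of -0.03 to 1.21. The median was -0.07 over the members and -0.02 over all genes. Against WT, rd10-TMB was higher in 3 of 22 members (Col4a1, Col1a2 and Col12a1) and lower in 4 (Col11a1, Col22a1, Lama2 and Col27a1), beside 6.64% and 8.46% of all genes. The intervals of Col12a1 and Lama2 included a ratio of 1 there, and the log2 ratio of Col4a1 was 0.54 against the WT cells with Xist. The 3 comparisons share their libraries and are not independent of each other.

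**Figure D3:**
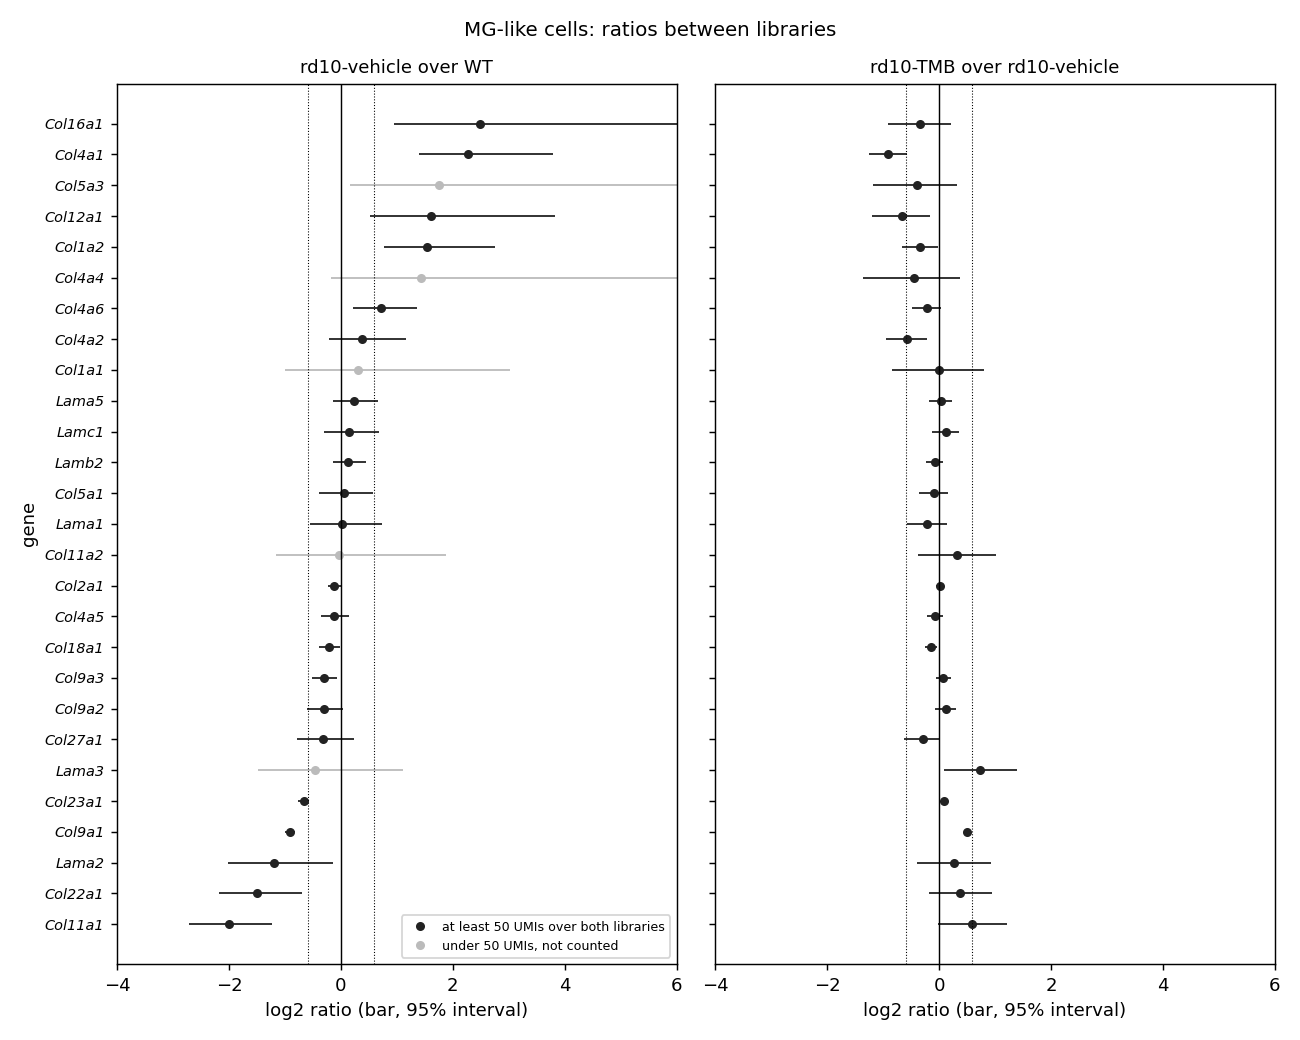
Log2 ratios of collagen and laminin genes in Müller-like (MG-like) cells for rd10-vehicle over WT (left) and rd10-TMB over rd10-vehicle (right), with 95% intervals for counting error cut off at -4 and 6, dotted lines at 1.5-fold and genes under 50 UMIs over both libraries in grey. On the left Col16a1, Col4a1, Col12a1 and Col1a2 lie highest and Col11a1 lowest, while on the right most genes lie near 0.

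Within Müller-like cells, several members differed between cells with and without a UMI of Lcn2, the lipocalin of reactive glia. Such cells were 9 of 530, 653 of 2492 and 300 of 1748 in WT, rd10-vehicle and rd10-TMB. Col1a2 stood at 21.3 CPM in cells with Lcn2 and 3.73 without it in rd10-vehicle, and at 24.4 and 2.28 in rd10-TMB, log2 ratios of 2.50 (interval 2.06 to 2.98) and 3.38 (2.81 to 4.07). Col12a1 showed 7.64 and 2.98 CPM in rd10-vehicle and 6.89 and 1.57 in rd10-TMB. Over the cells without Lcn2, the log2 ratio of Col1a2 for rd10-vehicle over WT was 0.61, down from 1.55.

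The other genes compared went both ways. Col4a6 stood at 18.6 CPM with Lcn2 and 13 without it in rd10-vehicle, and at 17 and 11.4 in rd10-TMB, log2 ratios of 0.53 (interval 0.20 to 0.85) and 0.59 (0.14 to 1.0). Lamb2 was higher with Lcn2 in both libraries, by log2 ratios of 0.25 (0.04 to 0.45) and 0.30 (0.03 to 0.56), while Col4a1 was level in rd10-vehicle, at -0.02 (-0.42 to 0.36), and higher in rd10-TMB, at 0.98 (0.36 to 1.56). Col9a1, Col23a1, Col18a1 and Col27a1 were lower with Lcn2 in both libraries, with intervals below 0. The log2 ratios of Col18a1 were -0.20 and -0.39 and those of Col27a1 -0.43 and -0.73 in rd10-vehicle and rd10-TMB. Col9a1 stood at 196 CPM with Lcn2 and 250.4 without it in rd10-vehicle, and at 249 and 353 in rd10-TMB. Col23a1 stood at 173 and 254 CPM in rd10-vehicle and at 173 and 265 in rd10-TMB. Col2a1, in contrast, was level, at 172 and 179 CPM in rd10-vehicle and 174 and 180 in rd10-TMB. Among cells without Lcn2, Col9a1 was still lower in rd10-vehicle than in WT by a log2 ratio of -0.80. Cells with Lcn2 were deeper, with a median of 10668 UMIs against 8218.5 over all libraries, and the part of depth was not tested.

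**Figure D4:**
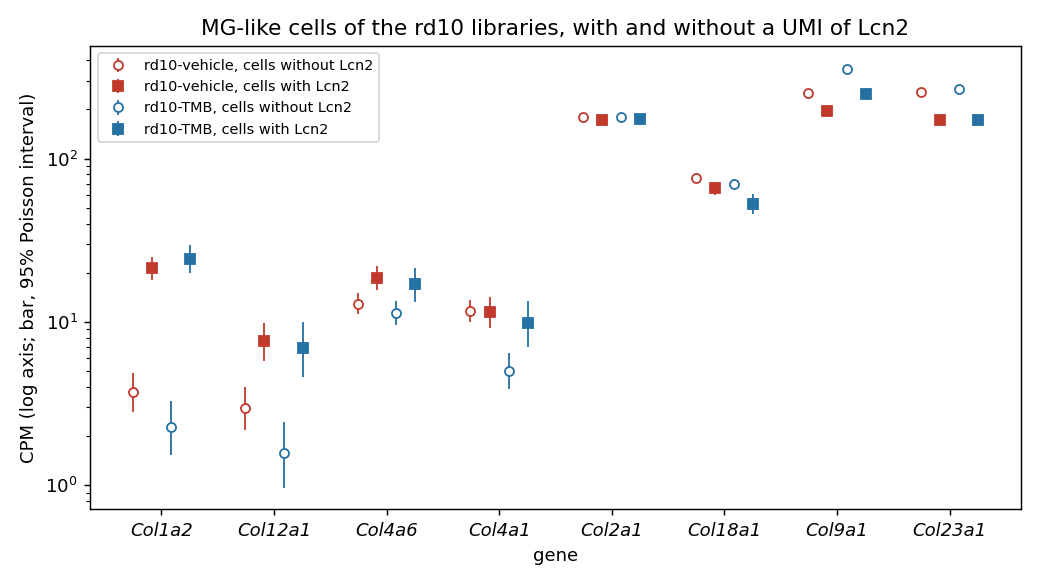
CPM on a log axis of 8 genes in Müller-like (MG-like) cells of the rd10 libraries, split by whether the cell had a UMI of Lcn2 (filled squares) or none (open circles), with 95% Poisson intervals. Col1a2 and Col12a1 lie higher in the cells with Lcn2 in both libraries, Col9a1 and Col23a1 lie lower, and Col2a1 is level.

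Endothelial-like cells showed the vascular basement membrane set, with 18 members at 50 UMIs or more, 22 at 1 to 43 and 11 at 0 in 393 cells. Col4a1 stood at 566, 615 and 556 CPM in WT, rd10-vehicle and rd10-TMB and Col4a2 at 355, 362 and 372, so the network chains were level across libraries. They were found at 1.61 UMIs of Col4a1 per UMI of Col4a2. Of the specialised chains, Col4a3 lay at 20.8, 23.8 and 30.2 CPM, Col4a4 at 33.0, 22.7 and 31.8 and Col4a5 at 15, 21.6 and 24.6. Lamc1, the common gamma chain, stood at 175, 167 and 207 CPM.

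The other vascular laminins stayed within 1.5-fold between rd10-vehicle and WT. Lamb2 stood at 118, 170.1 and 184 CPM in WT, rd10-vehicle and rd10-TMB, and its interval excluded a ratio of 1 in both comparisons with WT. Lama4, the endothelial alpha 4 chain, was at 60.2, 90.3 and 85.9 CPM, a log2 ratio of 0.58 (interval 0.20 to 0.98) for rd10-vehicle over WT that ended just under 1.5-fold. Lama2, a chain of mural basement membranes, was at 38.0, 50.4 and 72.3 CPM. Lama5 lay at 52.3, 59.3 and 51.7 CPM, Lamb1 at 27.9, 19.4 and 23.1 and Lamc3 at 28.7, 37.1 and 35.8, without a common direction.

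Among the other collagens of endothelial-like cells, Col3a1, a fibrillar chain of vessel walls, stood at 42.3, 21.6 and 31.8 CPM in WT, rd10-vehicle and rd10-TMB, and Col1a2 at 24.4, 32.7 and 44.5. Col5a2 lay at 8.60, 16.1 and 16.7 CPM, Col5a3 at 7.16, 16.1 and 12.7 and Col8a1, a short-chain collagen of vascular cells, at 10.0, 17.2 and 20.7. Col18a1 stood at 5.73, 21.6 and 22.3 CPM from 8, 39 and 28 UMIs, too few over rd10-vehicle and WT to be counted. The mural marker list summed to 6307, 9593 and 9917 CPM in these cells and the fibroblast list to 1492, 2633 and 2749, so both were also higher in both rd10 libraries, and their part in these differences was not tested beyond the split that follows.

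Of 14 members counted for rd10-vehicle over WT in endothelial-like cells, none was higher by 1.5-fold, beside 6.9% of all genes. Only Col3a1 was lower, or 7.14% against 11.4%, with a log2 ratio of -0.95 (interval -1.59 to -0.36). The median log2 ratio was 0.18 over the members and -0.01 over all genes. With each cell given equal weight 6 members were higher and 1 lower, so the count depends on how cells are weighted. None of 17 members passed 1.5-fold either way for rd10-TMB over rd10-vehicle, beside 2.96% of genes higher and 3.64% lower. For rd10-TMB over WT, 4 of 14 were higher (Lama2, Col1a2, Lamb2 and Col4a5), or 28.6% against 6.54%, and none lower, beside 11.5%. The interval of Col4a5 included a ratio of 1. Against the 64 WT cells that had a Xist UMI but none of a Y-linked gene, none was higher and 2 were lower, with ratios of 0.58 for Lama2, 0.41 for Lamb2 and 0.32 for Col1a2. In cells with at most 10% mitochondrial UMIs Col4a5 came to 0.46 and Lamb2 to 0.41, and without the top 5% of cells by UMIs Col1a2 came to 0.50.

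Within the cluster, 302 cells had more endothelial than mural marker UMIs, 67 had more mural ones and 24 had equal numbers. Lama2 stood at 111 CPM on the mural side and 43.1 on the endothelial side, a log2 ratio of 1.38 (interval 0.96 to 1.77). Col4a4 was at 69.9 against 21.4 CPM, Col4a3 at 57.0 against 19.2, Lamc3 at 69.9 against 28.3 and Lamc1 at 297 against 164. Lama4 and Lama5 were alike on both sides, at 89.8 and 80.2 CPM and at 54.2 and 56.8 CPM.

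The mural-like cluster, of 67 cells, had 4 members at 50 UMIs or more. Col4a1 stood at 876, 823 and 684 CPM in WT, rd10-vehicle and rd10-TMB and Col4a2 at 544, 523 and 438. Lamb2 lay at 196, 331 and 356 CPM and Lamc1 at 378, 214 and 315. Every interval of a ratio of these 4 genes included 1, so no difference between libraries was detectable for them at this depth.

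**Figure D5:**
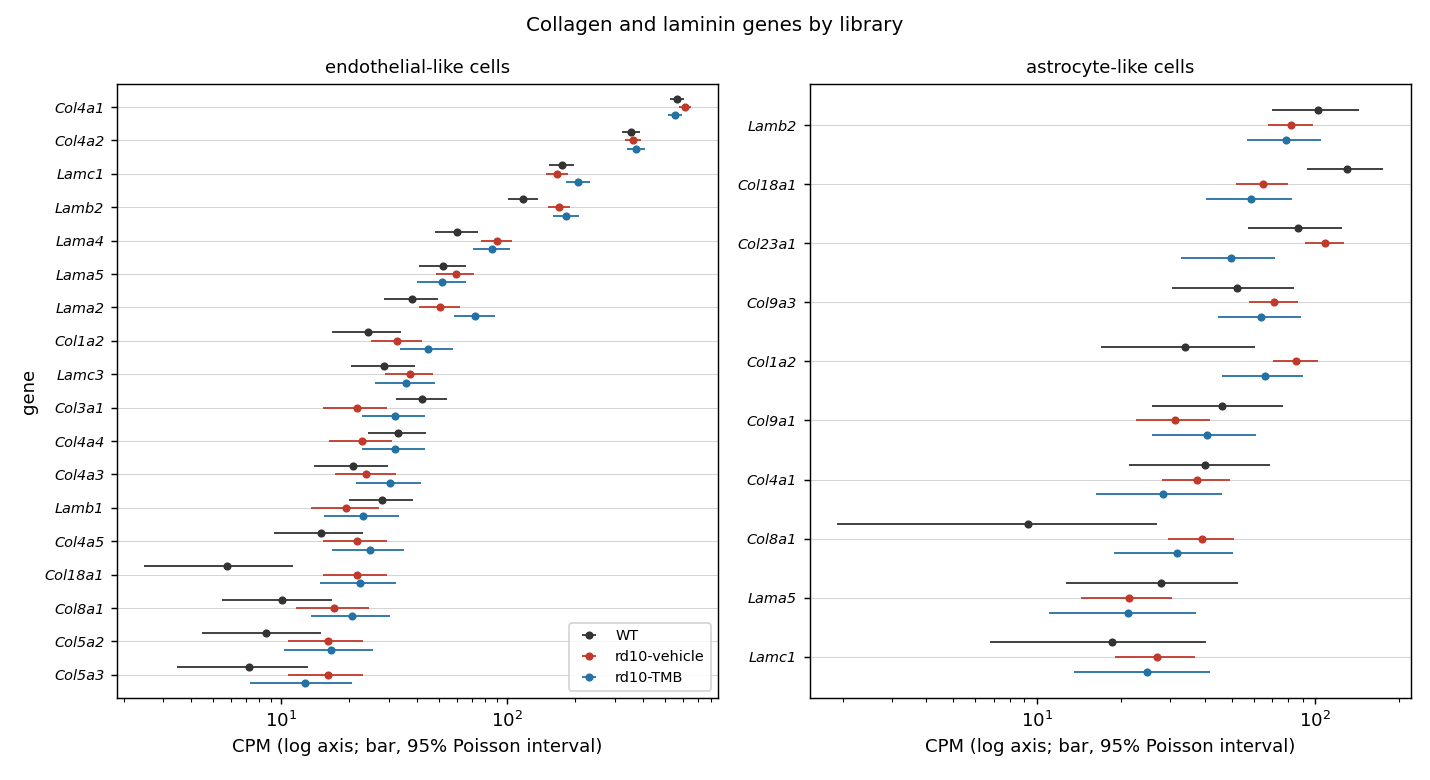
CPM on a log axis of the collagen and laminin genes with at least 50 UMIs in endothelial-like (left, 18 genes) and astrocyte-like cells (right, 10 genes), 1 point per library, with 95% Poisson intervals. Col4a1 and Col4a2 overlap between libraries in endothelial-like cells, and Col18a1 is highest in WT in astrocyte-like cells and lowest in WT in endothelial-like cells.

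Astrocyte-like cells were few, 20, 88 and 33 in WT, rd10-vehicle and rd10-TMB, and 10 members reached 50 UMIs. Col18a1 stood at 130, 64.7 and 58.6 CPM in WT, rd10-vehicle and rd10-TMB, a log2 ratio of -1.02 (interval -1.55 to -0.44) for rd10-vehicle over WT. Col1a2 was higher in rd10-vehicle, at 34.0, 85.3 and 65.7 CPM, with a log2 ratio of 1.22 (0.44 to 2.37). Col8a1, at 9.26, 39.1 and 32.0 CPM, had a ratio of 1.69 (0.46 to 4.40) that rests on 3 WT UMIs. Col23a1 stood at 86.4, 108 and 49.7 CPM, with a log2 ratio of -1.08 (-1.76 to -0.53) in rd10-TMB over rd10-vehicle.

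The remaining astrocyte values overlapped between libraries. Lamb2 lay at 102, 81.7 and 78.1 CPM, Lama5 at 27.8, 21.3 and 21.3 and Lamc1 at 18.5, 27 and 24.9. Col9a3 stood at 52.5, 71.1 and 63.9 CPM, Col9a1 at 46.3, 31.3 and 40.8 and Col4a1 at 40.1, 37.7 and 28.4. Of 8 members counted for rd10-vehicle over WT, 2 were higher and 2 lower, Col18a1 and Col9a1, beside 7.93% and 13.9% of all genes. The interval of Col9a1 included a ratio of 1, and its log2 ratio of -0.63 came to -0.49 with median-of-ratios scaling. For rd10-TMB over rd10-vehicle, none of 9 was higher, beside 4.21%, and Col23a1 was lower, beside 6.91%. For rd10-TMB over WT, 4 members could be counted, none higher, beside 5.76%, and 2 lower (Col18a1 and Col23a1), beside 12.3%. The interval of Col23a1 included a ratio of 1, and with each cell given equal weight it came to -0.48, inside 1.5-fold. The endothelial marker list summed to 18.5, 187 and 28.4 CPM in these cells and the mural list to 1204, 1914 and 1725, both in the order of Col1a2, while the fibroblast list summed to 765, 652 and 595 CPM. The part of any of them in the differences was not tested.

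The partners of these chains were counted from a list of the same pathway. Of 9 basement membrane partners counted in Müller-like cells, 4 were higher in rd10-vehicle than in WT and 1 lower, beside 8.64% and 9.31% of all genes: Hspg2 (perlecan) at 3.01 and 6.67 CPM, Fn1 (fibronectin) at 5.72 and 11.8, Egflam (pikachurin) at 2.11 and 4.59 and Fbln5 (fibulin 5) at 0.90 and 9.82, against Smoc1 at 12.3 and 8.02. Of 10 collagen and laminin receptors, 3 were higher, beside the same 8.64%, and none lower: the collagen receptor Ddr2, the laminin receptor Bcam and the hyaluronan receptor Cd44, the last at 77.4 and 209 CPM. No member of either group passed 1.5-fold between rd10-TMB and rd10-vehicle. The WT level of Fbln5 rests on 3 UMIs.

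Of 24 collagen processing genes counted in Müller-like cells, 2 were higher in rd10-vehicle than in WT and 3 lower, close to the 8.64% and 9.31% of all genes. Pcolce, which speeds removal of the procollagen tail, stood at 2.71, 18.2 and 13 CPM in WT, rd10-vehicle and rd10-TMB, and its relative Pcolce2 at 184, 87.4 and 83.9. Bmp1, the protease that removes the tail, stood at 11.7 CPM in WT and 25.1 in rd10-vehicle, and P4ha1, a prolyl hydroxylase, at 99.7 and 66.1. Loxl3 was also lower, with an interval that included a ratio of 1. Of 9 turnover genes, 3 were higher, beside 8.64%, among them the metalloproteinase inhibitors Timp1, at 2.11, 87.1 and 46.5 CPM, and Timp3, at 752, 1131 and 1135. Adamts4, the other higher gene, rests on 2 WT UMIs. For rd10-TMB over rd10-vehicle 1 of 10 turnover genes was lower, beside 2.2% of all genes, and 1 higher, beside 1.1%. The lower was Timp1, at a log2 ratio of -0.90 (interval -1.03 to -0.78), and the higher Adamts9, at 0.65 (-0.14 to 1.47).

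In endothelial-like cells 1 of 8 partners, 1 of 7 receptors, 1 of 13 processing genes and 2 of 5 turnover genes were higher in rd10-vehicle than in WT, beside 6.9% of all genes, and 1 processing gene was lower, beside 11.4%. The turnover protease Adamts1 stood at 220, 638 and 561 CPM in WT, rd10-vehicle and rd10-TMB, and Adamts9 at 4.30, 32.7 and 17.5. The laminin receptor Itga7 was at 14.3, 38.8 and 42.1 CPM, the partner Nid2 at 10.7, 21.1 and 15.1 and Pcolce at 13.6, 48.2 and 50.9. The lower gene was P4ha2, a prolyl hydroxylase, at 38.7, 20.5 and 32.6 CPM. Between rd10-TMB and rd10-vehicle, 2 of 7 turnover genes were lower, Adamts9 and the protease Mmp15, the latter at 8.74 against 32.7 CPM, beside 3.64% of all genes. Of 13 processing genes, P4ha2 was higher and Loxl2 lower, with intervals that included a ratio of 1.

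In astrocyte-like cells the list went both ways for rd10-vehicle over WT, with 1 of 5 partners higher and 2 lower, 1 of 5 receptors higher and 2 lower, 1 of 12 processing genes higher and 3 lower and 3 of 5 turnover genes higher, beside 7.93% of all genes higher and 13.9% lower. Fn1 stood at 1228, 561 and 589 CPM in WT, rd10-vehicle and rd10-TMB and the partner Agrn (agrin) at 151, 90.2 and 103, while Fbln1 (fibulin 1) was at 43.2, 92.4 and 83.4. Among receptors, Itga6 at 120, 57.6 and 62.1 CPM and Ddr1 at 327, 193 and 201 were lower, and Cd44 at 49.4, 124 and 97.6 was higher. The turnover genes Timp2, at 164, 269 and 199 CPM, and Adamts1, at 55.5, 108 and 92.3, were higher in rd10-vehicle. The intervals of Bmp1 (processing, higher), P4ha2 (processing, lower) and Mmp14 (turnover, higher) included a ratio of 1. Fn1 was higher in Müller-like cells, and whether it differed between the classes was not tested.

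Neurons held few of these transcripts, and Col4a1 and Col4a2 stood out in rod bipolar-like cells. Rod bipolar-like cells had Col4a1 at 90.1, 76.1 and 63.0 CPM in WT, rd10-vehicle and rd10-TMB and Col4a2 at 57.0, 53.5 and 44.8, with the anchoring collagen Col7a1 next at 8.38 CPM over all libraries. Thinned to 1000 UMIs, 7.13% of these cells had a Col4a1 UMI, against 1.09% of rod-like cells, and unthinned it was 25.4%. No such cell held more than 3 Col4a1 UMIs. Lama4 and Lamc3, each with over 100 UMIs in endothelial-like cells, had none beside 546 of Col4a1 in rod bipolar-like cells. All 3 libraries showed Col4a1 and Col4a2, and no ratio of either gene passed 1.5-fold. The log2 ratio of Col4a1 was -0.52 (interval -0.83 to -0.20) for rd10-TMB over WT.

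Amacrine-like cells were led by Col6a1 (58.1 CPM over all libraries), Col23a1 (38.7) and Col12a1 (38.1). Col6a1 lay mainly in cluster 5, at 79.2 CPM, and Col12a1 in cluster 9, at 100.5 CPM, its highest level among the clusters. With 105 and 83 amacrine-like cells in the rd10 libraries against 756 in WT, 8 members were counted. For rd10-vehicle over WT, 3 were higher (Col12a1, Col4a2 and Lamb1), beside 11.2% of all genes in these cells, and 2 lower (Col11a1 and Col25a1), beside 12.3%. For rd10-TMB over WT, 1 was higher (Col11a1), beside 11.8%, and 1 lower (Col25a1), beside 10.3%. Every interval but that of Col12a1 reached a ratio of 1. Col12a1 stood at 70.7 CPM in rd10-vehicle and 34.8 in WT, but cluster 9 held 295 of 756, 62 of 105 and 48 of 83 amacrine-like cells in WT, rd10-vehicle and rd10-TMB. Within cluster 9 the level of Col12a1 was 98.9, 127 and 78.0 CPM, and the part of the mix of clusters was not tested. ON cone bipolar-like cells had Col23a1 (32.3 CPM), Col7a1 (18.4) and Col8a1 (17.9) highest. Their Col23a1 stood at 23.3, 38.5 and 33.0 CPM in WT, rd10-vehicle and rd10-TMB, a log2 ratio of 0.69 (0.02 to 1.47) for rd10-vehicle over WT. It was the 1 member counted in that comparison, in which 3.54% of all genes were higher by 1.5-fold.

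The other neuronal classes were led by low levels, given over all libraries. Rod-like cells had Col19a1 (18.1 CPM), Col4a1 (11.5) and Col4a4 (11.2), cone-like cells Lamc1 (11.7), Col17a1 (6.65) and Col7a1 (5.19), and OFF cone bipolar-like cells Col11a1 (16.7), Col7a1 (13.2) and Col8a1 (10.9). This Col11a1 came mostly from WT, at 37.8, 3.02 and 6.95 CPM in WT, rd10-vehicle and rd10-TMB. Its 42, 3 and 7 UMIs were too few for a counted ratio. Ganglion-like cells, 37 of 43 from WT, had Col25a1 (59.3 CPM, 44 UMIs), a transmembrane collagen of neurons, Lamb1 (43.1) and Col6a2 (13.5). Cluster 6 had Col4a2 and Col8a1 at 19.8 CPM each and Col4a1 at 14.5, and cluster 10 had Col4a1 and Col4a2 at 22.7 CPM each and Lama1 at 9.09. By library, cluster 6 had Col4a2 at 6.69, 29.1 and 27.4 CPM in WT, rd10-vehicle and rd10-TMB and Col8a1 at 8.93, 27.6 and 25.9. Its highest member in WT was Col23a1, at 24.5 CPM against 4.36 and 7.20. All were under the count limit. At most 1 member had enough UMIs for a comparison in any of these classes, and none passed 1.5-fold.

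Small clusters held the highest levels of many members. In 64 pigment epithelium-like cells the short-chain collagens of pigment epithelial and other basement membranes led, with Col8a1 at 2944, 2413 and 2485 CPM in WT, rd10-vehicle and rd10-TMB and Col8a2 at 684, 444 and 592. Col9a3 stood at 498, 537 and 663 CPM there, while its partners were low, with Col9a1 at 13 CPM over all libraries and Col9a2 at 0 UMIs. Col4a3 and Col4a4, whose chains share a network, were both present in pigment epithelium-like and lens-like cells. In pigment epithelium-like cells Col4a3 stood at 228, 451 and 331 CPM in WT, rd10-vehicle and rd10-TMB and Col4a4 at 270, 394 and 260. In lens-like cells Col4a3 stood at 454 CPM in rd10-vehicle and 129 in rd10-TMB and Col4a4 at 539 and 99.2, with the rd10-TMB UMIs in 3 and 4 of 19 cells. Lens-like cells, 37 in all and from the rd10 libraries, also had the highest levels of Col4a1 (3450 and 982 CPM in rd10-vehicle and rd10-TMB) and Col4a2 (1641 and 466 CPM), again mostly from rd10-vehicle.

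Cluster 18, of 32 cells, passed 4 of 8 fibroblast and 3 of 14 Müller glia markers, and 3 of the fibroblast markers were among its top 10 genes. It held several of these genes at levels above those of Müller-like cells: Col18a1 at 861 CPM, Col9a1 at 610, Col9a3 at 409, Col23a1 at 406 and Col1a2 at 373. Its Col2a1 level, 175 CPM, was close to theirs. Of these cells 23 were from rd10-vehicle. Much of the Col3a1 and Col1a1 lay in 4 cells. These 4 rd10-vehicle cells of cluster 19, which had more fibroblast than horizontal cell marker UMIs, held 226 of all 399 UMIs of Col3a1 and 140 of all 214 of Col1a1, while the other 24 cells of that cluster had none of either. The whole-library totals of these genes in rd10-vehicle, 280 of Col3a1 and 174 of Col1a1, therefore rest mostly on 4 cells.

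By the count limit, 35 of the 51 genes had at least 50 UMIs in Müller-, endothelial-, astrocyte- or mural-like cells. A further 9 reached it over all cells but in none of these 4 classes. The 7 under it had 11 to 48 UMIs each over all cells, among them Col28a1 with 11, Col14a1 with 45 and Col15a1 with 48.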

How the data were processed

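Droplet 3′ single-cell RNA-seq (10x Genomics v3 chemistry) was performed on 3 retinal libraries. The submitters' processing notes name mm10, Cell Ranger 6.0.1 and Seurat 3.2.2. The study's methods add that doublets were removed with Scrublet and that clusters were formed after Harmony correction for library. Per the values, the deposited expression table is on a natural log scale (1 plus the UMIs of a gene scaled to 10000 in each cell), and the cell table made by the authors gives each cell's total UMI count, cluster and library. UMI counts were recovered from both, and all 32620606 entries were whole within 0.001 UMI. The deposited cells all had at least 500 genes, and no cell filter was added.

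Each gene's UMIs were added up over the cells of a class in a library and scaled to the class total (CPM). With 1 library per group no test was run. Ratios have a pseudocount of 1 UMI, and a gene was counted with at least 50 UMIs over both libraries and called past 1.5-fold. Levels have exact Poisson intervals, ratios exact conditional binomial intervals and shares of cells exact Clopper-Pearson intervals, all at 95% and for counting error only. For shares at equal depth, each cell was thinned to 1000 UMIs, as the mean over all draws, leaving out 40 Müller-like and 374 rod-like cells below that. A marker had to reach 20 CPM and 2-fold the level elsewhere, and a cluster was named from at least 3 markers with 1 in its top 10 genes. Amacrine-like cells are clusters 5 and 9, OFF cone bipolar-like cells clusters 7 and 8. Clusters 6 and 10, which passed both bipolar and amacrine markers, and cluster 20 were kept by number. So were clusters 18 and 19, which passed markers of another type beside fibroblast markers in their top 10 genes. The ratio and interval code was tested on simulated data.

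Named genes were all members with at least 50 UMIs in Müller-, endothelial-, astrocyte- or mural-like cells, with the 3 highest members of each neuronal class and those past 1.5-fold there. The members, marker lists and pathway list were chosen with earlier results of these data known. Alternatives changed the scaling, pseudocount, count limit, fold, cell filter, depth and WT cells. Those without Lcn2, without vascular and lens UMIs and by mural markers were chosen after seeing the data. Python 3.11.15 with numpy 2.4.6, scipy 1.17.1 and pandas 2.3.3 was used. The values of 1 gene are not reported here.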

Additional observations from a re-analysis of the deposited data

Results flagged for a closer look

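Col23a1, a transmembrane collagen, went opposite ways between 2 cell classes. The log2 ratio of rd10-vehicle over WT was -0.67 in Müller-like cells and 0.69 in ON cone bipolar-like cells, with 1 library per group. The difference between the classes was not tested.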

How the results depend on the processing

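No paired analysis was possible because each group is 1 library. In all 108 alternatives the median log2 ratio of the members stayed between the medians of the single members' lower and upper bounds. That span, -0.37 to 0.34 for rd10-vehicle over WT in Müller-like cells, is not an interval of the median, so this is a weak check. Of the counts of members past 1.5-fold, 67 stayed within 1.5 times and 41 moved. For rd10-vehicle over WT in Müller-like cells the count of 10 became 16 with a limit of 20 UMIs, 5 with 200 and 3 after thinning. For rd10-TMB over rd10-vehicle the 3 became 5 (limit 20), 1 (limit 200), 0 (2-fold), 5 (without the top 5% of cells by UMIs), 1 (thinned) and 5 (without Lcn2). For rd10-TMB over WT the 7 became 13 (limit 20), 0 (limit 200), 4 (2-fold) and 2 (thinned). In endothelial-like cells the single call for rd10-vehicle over WT became 2 (median-of-ratios), 7 (equal weight per cell), 2 (pseudocount 0.1), 5 (limit 20), 0 (limit 200), 0 (2-fold), 3 (mitochondrial filter), 4 (without the top 5%), 0 (thinned), 2 (WT cells with Xist) and 2 (endothelial side). The 0 for rd10-TMB over rd10-vehicle became 2 (equal weight), 2 (limit 20) and 3 (endothelial side), and the 4 for rd10-TMB over WT became 9 (limit 20), 1 (limit 200), 0 (2-fold), 2 (without the top 5%), 0 (thinned) and 2 (WT cells with Xist). In astrocyte-like cells the 4 for rd10-vehicle over WT became 7 (limit 20), the 1 for rd10-TMB over rd10-vehicle became 4 (equal weight) and 3 (limit 20), and the 2 for rd10-TMB over WT became 1 (equal weight), 4 (limit 20), 1 (2-fold), 0 (mitochondrial filter) and 1 (without the top 5%). A higher limit and thinning leave fewer genes to count, and the cause of the other moves was not tested. Without thinning, 31 members had a share of Müller-like cells apart from that of rod-like cells, against 16. For single members, 277 values stayed within the counting interval of the reported ratio and 6 moved out of it, none to the other sign, though several of the 277 no longer passed 1.5-fold, as given beside those genes, and 39 called values could not be recomputed because the gene fell under the count limit, 23 of them after thinning. The settings without Lcn2, without vascular and lens UMIs and on the endothelial side were chosen after seeing the data. The largest cluster alone could not be run, since these classes are 1 cluster each.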
